A study of Mus musculus with 6 samples.

Results

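NRF2, the transcription factor encoded by Nfe2l2, and 9 of its usual antioxidant targets were examined in cultured mouse cells labelled as dendritic cells. The cells had or had not been treated with DB2313. The 10 genes (Nfe2l2, Hmox1, Nqo1, Slc7a11, Gclc, Gclm, Gsr, Txnrd1, Prdx1 and Srxn1) were selected by name among the 54532 genes of the count table. They were chosen by name with earlier results of the DB2313 comparison in these same 6 libraries in view. Their values in this comparison are therefore a description. All 10 passed the filter on low counts, as did 14174 genes in all.

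Bulk RNA-seq was performed on 3 control libraries and 3 libraries of cells treated with DB2313, a compound the study used to block Spi1 (PU.1), a transcription factor of macrophages and dendritic cells. Per the labels, both groups were dendritic cells grown in 1640 medium with serum and antibiotics, and neither strain, sex, age, dose nor time was given. The study's own text differs from the labels. It describes RNA-seq of macrophages and of CD8T cells, and its comparison of DB2313 with control as one of macrophages. Its methods give a dose of the compound for macrophages. Which cell type these libraries hold could not be settled from the sources used here. The control columns were headed BMDC and the treated ones SPI1, and every direction below rests on reading these as control and DB2313. Libraries held 16146743 to 19764677 counts.

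Most markers of the labelled cell type were present. Of 14 dendritic cell markers, 13 had a mean of at least 1 CPM (counts scaled to a common library size, with TMM factors), among them Itgax, Zbtb46 and Flt3, whereas Cd209a averaged 0.021 ± 0.036 CPM in control (SD, n = 3). Their summed level was 12419.5 to 12695 CPM in control and 10655 to 12514 CPM with DB2313. Cd74 made up the largest part of this sum (means of 6557 and 5999 CPM) and was not called. The 1 marker called higher was Clec9a, from a mean of 0.77 CPM in control to 3.36 CPM with DB2313. The 3 called lower were Itgax, Irf4 and Batf3. All 14 macrophage and all 13 neutrophil markers also reached 1 CPM. The summed neutrophil markers were at 4982 to 5493 CPM in control and 5416 to 6758 CPM with DB2313, and 5 of 13 were called higher. The summed macrophage markers were at 10483 to 11907 and 9423 to 10316 CPM, with 8 of 14 called lower and 2 higher (Marco and Fcgr1). Lyz2 made up the largest part of this sum (means of 8751 and 7887 CPM) and was not called. Beside these marker counts, 10.6% of all genes tested were called, 4.66% higher and 5.94% lower. Mast cell and basophil markers summed to 2521 to 2721 and 2569.8 to 3079 CPM (2 of 9 tested called higher) and T cell markers to 166 to 199 and 168 to 249.7 CPM (none of 8 called), while the B cell, erythroid and fibroblast sums reached at most 6.44 CPM. Mitochondrial genes took 2.06% to 2.41% of counts in control and 1.46% to 1.57% with DB2313. In bulk RNA, fewer cells of a type and less RNA per cell cannot be told apart. The part of these markers and of the mitochondrial share in the results below was not tested.

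NRF2 is held in the cytoplasm by Keap1, which hands it to the Cul3 ubiquitin ligase for degradation. Electrophiles and oxidants modify Keap1, so that NRF2 accumulates in the nucleus, pairs with small MAF proteins and binds antioxidant response elements. Control is thus largely at the protein level, and the mRNA of Nfe2l2 does not report the activity of the protein. Its targets supply glutathione, run the thioredoxin system, break down haem and detoxify quinones. In macrophages and dendritic cells this programme is known for limiting oxidative damage and inflammatory gene expression.

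With DB2313, 6 of the 10 genes (Txnrd1, Gclm, Prdx1, Srxn1, Gsr and Hmox1) were called higher, 1 (Slc7a11) was called lower and 3 (Gclc, Nfe2l2 and Nqo1) were not called at an adjusted p under 0.05 in edgeR over all genes. Among all genes tested, 10.6% were called, 4.66% higher and 5.94% lower. Because the genes were chosen with this contrast in view, nothing is read from the difference between these shares. The changes were small. The 6 higher genes rose by 17.7% to 31.4%, and Slc7a11 fell by 28.4%. The median log2 fold change of the 10 genes was 0.31, against 8.2e-04 for all genes tested. The CPM of the groups did not overlap for 8 of the 10 genes and for 27.4% of all genes.

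**Figure D1:**
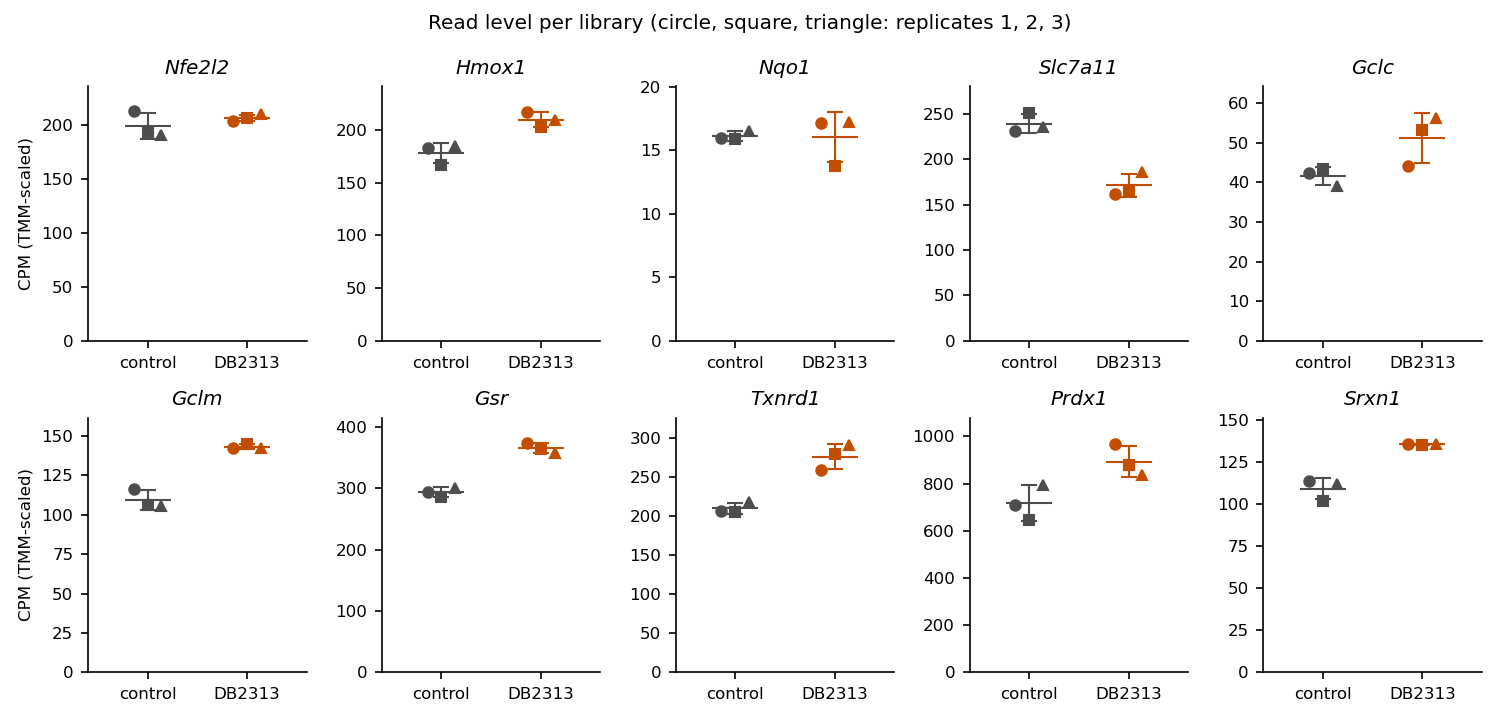
Read level of each of the 10 genes in TMM-scaled CPM, with 1 point per library, the group mean as a bar and the SD as an error bar (3 control libraries in grey, 3 DB2313 libraries in orange). All DB2313 points lie above the control points for Hmox1, Gclc, Gclm, Gsr, Txnrd1, Prdx1 and Srxn1, below them for Slc7a11, within the control range for Nfe2l2, and on both sides of it for Nqo1.

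The promoter letters that NRF2 could read were looked up for the genes with a RefSeq promoter window (GRCm38.p6, 250 bases before to 50 after the start site). Windows were found for 7 of the 10 genes, namely Nfe2l2, Nqo1, Slc7a11, Gclm, Txnrd1 (with several), Prdx1 and Srxn1, 9 windows in all. The core of the antioxidant response element was searched as TGACNNNGC on both strands. It was present for 5 of the 7 genes, in 1 window each, which is 5 of the 9 windows. Of all 32851 windows, 12.4% held it, and so did 14.5% of those of genes tested here. The matches are shown with 10 bases on either side and the match in capitals, read on the strand that carries it, because they let the 5 genes be compared base by base.
Nfe2l2: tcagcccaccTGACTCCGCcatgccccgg
Gclm: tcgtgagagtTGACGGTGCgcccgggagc
Txnrd1: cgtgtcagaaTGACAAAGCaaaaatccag
Prdx1: ctacgggggaTGACTCAGCgctttccctg
Srxn1: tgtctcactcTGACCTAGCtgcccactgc

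The window of Nfe2l2 lies at chr2:75704885-75704913 and is read on the strand of the gene, with the match at -240 to -232 from the start site. The others are read on the opposite strand, at chr3:122245413-122245441 for Gclm, chr10:82859104-82859132 for Txnrd1 and chr4:116685456-116685484 for Prdx1. That of Srxn1 (chr2:152105542-152105570) lies after the start site. The match of Txnrd1 is in its promoter window at chr10:82858956-82859255. The windows of Txnrd1 at the annotated gene start (chr10:82833701-82834000) and at chr10:82860091-82860390 held none. A longer form in which NRF2 and small MAF proteins are often found, TGANTCAGC, was searched on both strands after the first result had been seen. It overlaps the letters of the AP-1 site TGANTCA. It was present in the windows of Prdx1 and Srxn1 and in 1.19% of all windows. In Prdx1 it was the match shown above. In Srxn1 it stood before the start, at -45 to -37 on the gene strand (chr2:152105469-152105497), apart from the core match above, and is shown so that it can be compared with that of Prdx1.
Srxn1, longer form: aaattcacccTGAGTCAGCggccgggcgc

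Neither form was in these windows of Nqo1 or Slc7a11. The letters GAGGAAGT, a common core of PU.1 sites, were in none of the 9 windows and in 3.20% of all windows (both strands). These are matches of letters only, and no binding was measured.

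The regulator itself did not differ beyond its error. Nfe2l2 (ENSMUSG00000015839, chr2:75675513-75704641, minus strand, GRCm38) had 213, 193 and 191 CPM in control replicates 1 to 3 and 204, 206 and 209.8 CPM with DB2313. The DB2313 libraries lay inside the control range. Its log2 fold change was 0.053 ± 0.070 (SE), with a 95% interval from -0.096 to 0.20.

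Hmox1 encodes haem oxygenase 1, which splits haem into biliverdin, iron and carbon monoxide and has long been used as a readout of NRF2. It lies at chr8:75093621-75100589 (plus strand) and had 183, 167 and 184 CPM in control and 217, 203 and 209 CPM with DB2313. All treated libraries were above all controls. The log2 fold change was 0.24 ± 0.070 (SE), the least of the 6 genes called higher, and the call was lost in 8 of 17 alternative fits, among them each of the 5 that left out a control library or DB2313 replicate 1 or 2 (0.20 to 0.26).

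Nqo1, the quinone reductase that is another classic NRF2 readout, showed no such difference. At chr8:107388225-107403206 (minus strand), it was the lowest of the 10 genes in reads, with 15.99, 15.9 and 16.6 CPM in control and 17.1, 13.7 and 17.3 CPM with DB2313. DB2313 replicate 2 was below the controls and the other treated libraries were above them. The log2 fold change was -0.012 ± 0.13 (SE), and its 95% interval ran from -0.28 to 0.26, so that a rise like that of Hmox1 lies within it. The sign turned with library totals as scaling (0.011), without control replicate 3 (0.0087) and without DB2313 replicate 2 (0.092). The ratio of Hmox1 to Nqo1 counts within a library was 10.5 to 11.4 in control and 12.1 to 14.8 with DB2313.

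The 4 genes of glutathione supply did not move one way. Slc7a11, the light chain of the cystine/glutamate exchanger that brings in the cysteine needed for glutathione, had 231, 250.3 and 236 CPM in control and 162, 166 and 186 CPM with DB2313. Every treated library was below every control. Its log2 fold change was -0.48 ± 0.074 (SE), and it was called lower in all 17 alternative fits (-0.54 to -0.38). Of all genes tested, 7.08% had a lower log2 fold change.

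The annotation of Slc7a11 calls for care. The gene is given as chr3:49892526-50443614 (minus strand) with a length of 13922 bp, and an annotated stretch of up to 375 bp is at least 95% identical to stretches of 11 other annotated genes. Tuba1b, Tuba1a and Tuba1c, the alpha-tubulin genes among them and the most abundant in counts, had log2 fold changes of 0.17 ± 0.089, -0.14 ± 0.084 and -0.20 ± 0.076 (SE), and none was called. How reads with several matches were counted was not stated.

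Gclc and Gclm form glutamate-cysteine ligase, the rate-limiting enzyme of glutathione synthesis, as its catalytic and modifier subunits. Gclm (chr3:122245557-122270732, plus strand) had 116, 106 and 105 CPM in control and 142, 145 and 142 CPM with DB2313. The groups were well apart, and the treated libraries lay close together (coefficient of variation 1.07%, against 5.62% in control). At their 2344 to 2888 counts, read counting alone is expected to spread libraries by more, so nothing is read from this closeness. Its log2 fold change was 0.39 ± 0.072 (SE), and it was called higher in all 17 alternatives.

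Gclc (chr9:77754535-77794485, plus strand) had 42.4, 43.5 and 39.1 CPM in control and 44.1, 53.2 and 56.3 CPM with DB2313. DB2313 replicate 1 was just above the highest control, and the coefficient of variation was 12.3% in the treated group. The log2 fold change was 0.30 ± 0.099 (SE) with a 95% interval from 0.088 to 0.51. It was not called with all libraries, but was called without DB2313 replicate 1 (0.40), with no filter on low counts (0.31) and with an offset for gene length (0.30). Per length, on the TPM scale used below, the groups of Gclc overlapped. The ratio of Gclm to Gclc counts was 2.44 to 2.75 in control and 2.52 to 3.22 with DB2313, and these ranges overlapped. The ratio of Slc7a11 to Gclm counts was 1.99 to 2.36 in control and 1.14 to 1.31 with DB2313. This follows from the opposite calls of these 2 genes and is no further result.

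Some reads of Gclm may also belong elsewhere. An annotated stretch of the gene is at least 95% identical, over up to 297 bp, to stretches of 17 other annotated genes. Ppia, the most abundant of them, had a log2 fold change of 0.0065 ± 0.081 (SE). Gm10123, a pseudogene with 18344 counts in the 6 libraries, had one of 0.79 ± 0.21 (SE, edgeR adjusted p 0.0270). Both genes were named after these values were seen.

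Gsr, glutathione reductase, returns oxidised glutathione to its reduced form with NADPH. At chr8:33652523-33698163 (plus strand), it had 294, 286 and 301 CPM in control and 373, 364 and 357 CPM with DB2313. Its log2 fold change was 0.31 ± 0.064 (SE), the smallest error of the 10 genes, and the call held in all 17 alternatives (0.29 to 0.34).

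The 3 genes of the thioredoxin arm were each called higher. Txnrd1, the cytosolic selenoenzyme that reduces thioredoxin (chr10:82833951-82897712, plus strand), had 207, 206 and 219 CPM in control and 259.8, 279.7 and 291 CPM with DB2313. All treated libraries were higher by a clear margin, and DB2313 replicate 1 was the lowest of them. It showed the largest positive log2 fold change of the 10 genes, 0.39 ± 0.070 (SE), and was called higher in all 17 alternatives.

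Prdx1, an abundant peroxiredoxin that removes hydrogen peroxide, lies at chr4:116685544-116700822 (plus strand). It had 711, 647 and 796 CPM in control and 966, 877 and 838 CPM with DB2313. Control replicate 3 came within a short distance of DB2313 replicate 3, the lowest of the treated libraries. The log2 fold change was 0.32 ± 0.082 (SE), and the call was lost in 4 of 17 alternatives, including the fits without control replicate 1 (0.31), control replicate 2 (0.25) or DB2313 replicate 2 (0.33). A pair of Prdx1 pseudogenes match it over 597 bp, and of these Gm21399 had 423 counts in all 6 libraries, against 81899 for Prdx1.

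Srxn1, sulfiredoxin, repairs peroxiredoxins that have been over-oxidised. At chr2:152105516-152111376 (plus strand), it had 114, 102 and 112 CPM in control and 136, 135 and 136 CPM with DB2313. The treated libraries were almost equal, with a coefficient of variation of 0.223%. At their 2238 to 2701 counts, read counting alone is expected to spread libraries by more, so nothing is read from this closeness. The log2 fold change was 0.31 ± 0.072 (SE), and the call was lost without control replicate 2 (0.27) and without DB2313 replicate 2 (0.32). The ratio of Srxn1 to Prdx1 counts was 0.141 to 0.160 in control and 0.141 to 0.162 with DB2313.

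**Figure D2:**
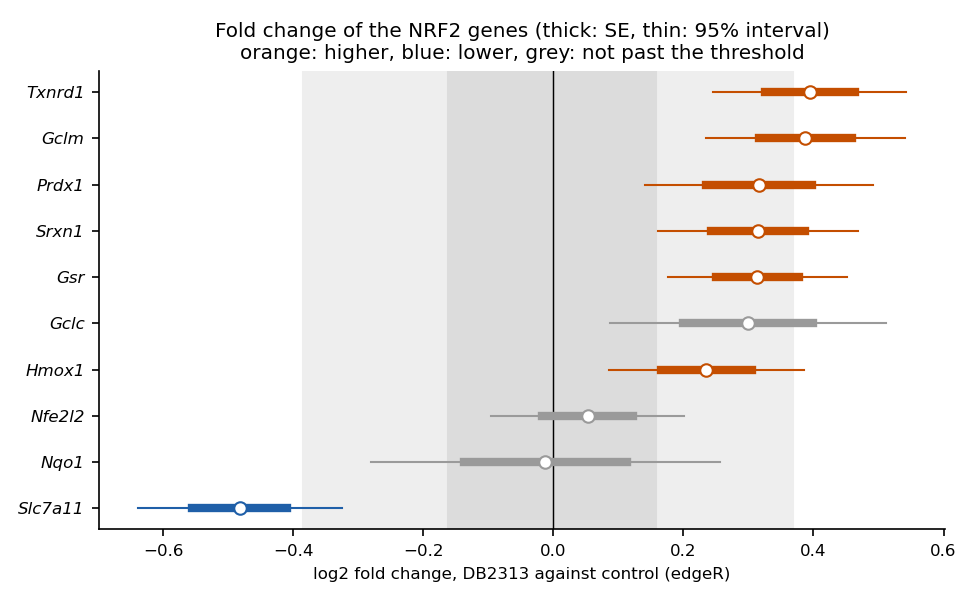
Log2 fold change of the 10 genes with the SE (thick line) and the 95% interval (thin line), over bands from the 25th to the 75th and from the 10th to the 90th percentile of all genes tested. Slc7a11 lies below the wider band at -0.48, Txnrd1 and Gclm lie above it at 0.39, and the other genes called higher lie between 0.24 and 0.32.

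Relative to the control mean, Prdx1 had the widest spread between control libraries of the 10 genes (-0.14 to 0.15 on the log2 scale), with 0.43, 0.29 and 0.23 in DB2313 replicates 1 to 3. Together the 10 genes took 0.199% to 0.217% of all counts in control and 0.246% to 0.250% with DB2313. Prdx1 and Gsr held the most of these counts (81899 and 33473 in the 6 libraries), so this share weighs them most. Leaving out 1 library mattered for the number of calls. It fell from 7 to 4 without control replicate 2 and without DB2313 replicate 2, with 3 higher and Slc7a11 lower in each case.

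**Figure D3:**
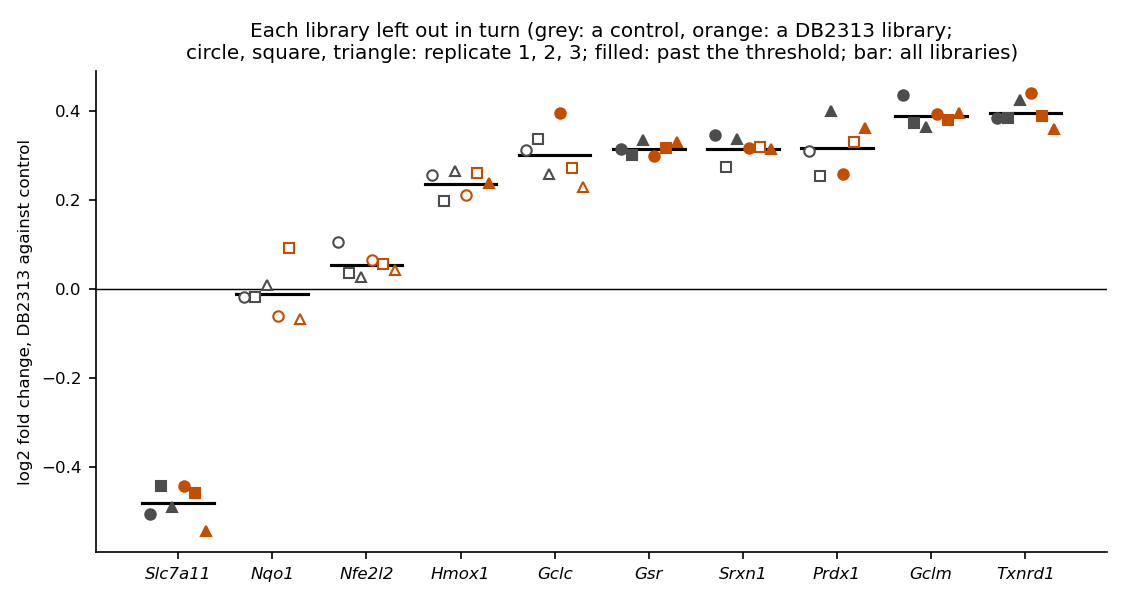
Log2 fold change of each gene when 1 library at a time was left out (grey for a control, orange for a DB2313 library, symbols for replicates 1 to 3, filled where the gene was called), with the value from all libraries as a bar. Slc7a11, Gsr, Gclm and Txnrd1 stay filled throughout, Nfe2l2 and Nqo1 stay unfilled, and the others mix both.

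Levels between genes were compared per length, as TPM (counts divided by the deposited gene length and scaled to the same total in each library). In control the order was Prdx1 (642 ± 59.9), Gsr (290.2 ± 5.16), Hmox1 (277 ± 13.9), Nfe2l2 (143 ± 10.1), Srxn1 (105 ± 5.88), Txnrd1 (80.96 ± 1.74), Gclm (47.4 ± 3.09), Slc7a11 (46.8 ± 2.14), Gclc (30.1 ± 2.00) and Nqo1 (28.3 ± 0.319) (TPM, mean ± SD, n = 3). Gsr and Hmox1, Gclm and Slc7a11, and Gclc and Nqo1 overlapped between control libraries and could not be ordered. Prdx1 was above 98.6% of all genes tested and Nqo1 above 66.2%. With DB2313 the mean of Slc7a11 fell to 33.3 ± 4.18 TPM and below that of Gclc (36.9 ± 6.37 TPM), while the other ranks were unchanged; the libraries of these 2 genes overlapped. The long annotated model of Slc7a11 lowers its level per length.

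**Figure D4:**
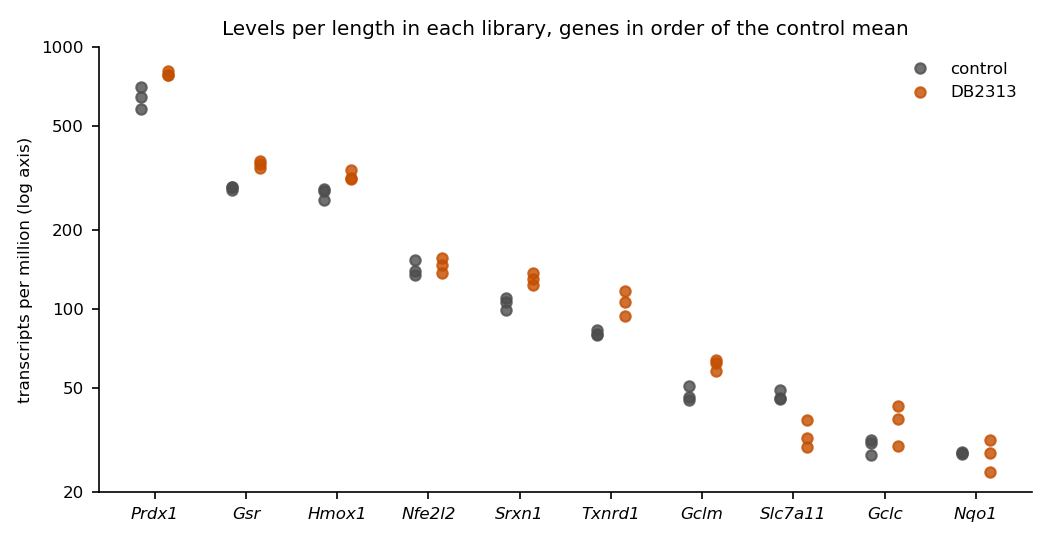
TPM on a log axis for the 10 genes in the order of their control mean, with 1 point per library (control in grey, DB2313 in orange). Prdx1 is highest at 582 to 702 TPM in control, and Slc7a11 is the gene whose orange points fall below the grey ones.

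Of 20 genes that hold NRF2 in check, pair with it or are related to it, 1 was called higher and 1 lower, with a median log2 fold change of -0.045. Called genes made up 10.0% of this list and 10.6% of all genes tested. Keap1 averaged 80.8 ± 1.89 CPM in control against 81.1 ± 5.74 CPM in treated cells (SD, n = 3), a log2 fold change of 0.0060 ± 0.079 (SE) whose sign turned without control replicate 2 and without DB2313 replicate 2 or 3. Bach1, the haem-sensitive repressor of Hmox1, had a value of -0.039 ± 0.11, Cul3 of -0.13 ± 0.076, Mafg of -0.11 ± 0.074, Mafk of -0.050 ± 0.099 and Sqstm1, which can take Keap1 to autophagy, of -0.063 ± 0.062 (log2 fold change ± SE). None of these was called, and the sign also turned for Bach1 and Mafk when single libraries were left out. Nfe2l3, a relative of NRF2, fell from 6.25 ± 1.13 to 2.01 ± 1.15 CPM (log2 fold change -1.61 ± 0.32, SE, edgeR adjusted p 0.00446). Trim21, an antibody-binding ubiquitin ligase that is also an interferon-induced gene, rose by a log2 value of 0.39 ± 0.10 (SE, adjusted p 0.0243), a call lost in 4 of 17 alternatives, each without 1 library.

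Around the pathway, 166 further genes were listed from general knowledge, with earlier results of these data known, and 145 were tested. These lists are not limited to targets of NRF2. Of the 145 genes, 23 were called higher and 11 lower, which is 23.4%, beside the 10.6% of all genes given above. Because of how the lists were drawn up, nothing is read from the difference between these shares. The median log2 fold change was 0.051. The count depended on single libraries, with 14 called without DB2313 replicate 2, 16, 17 and 21 without control replicates 1, 2 and 3, and 51 without DB2313 replicate 3. As the plot of all lists shows, 9 of the higher calls were glutathione genes and 6 were detoxification genes.

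**Figure D5:**
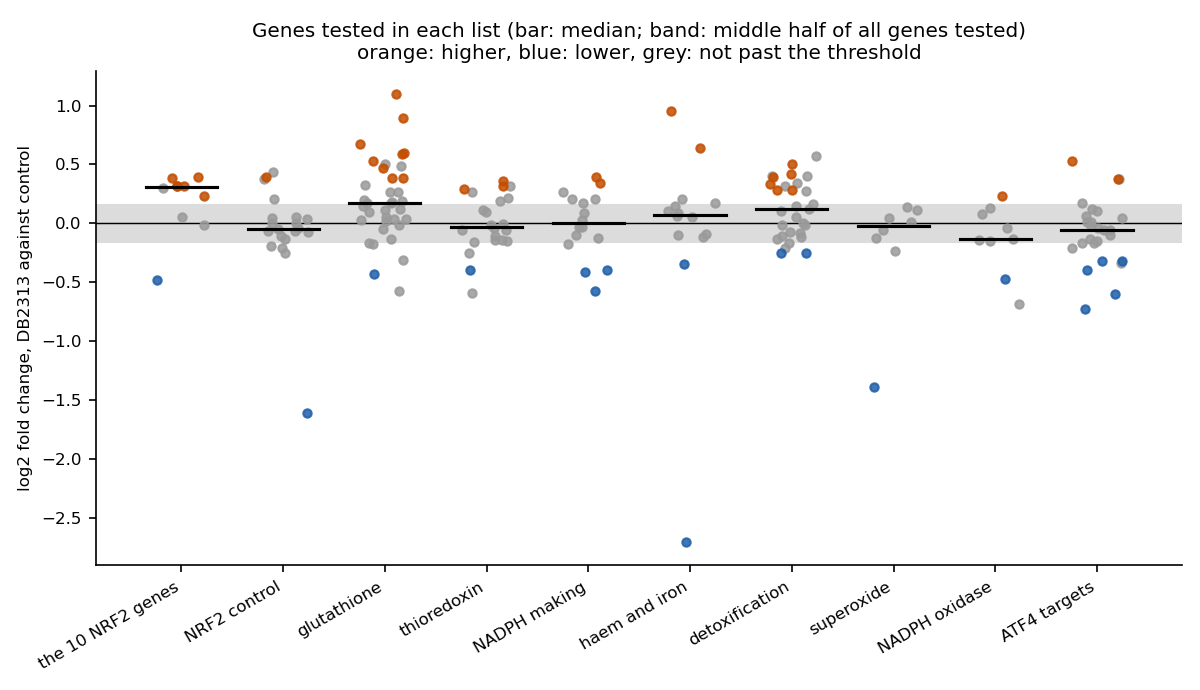
Log2 fold change of every tested gene of the 10 NRF2 genes and of 9 other lists, with the median as a bar, called genes in orange (higher) or blue (lower), and a band from the 25th to the 75th percentile of all genes tested. The glutathione list has 9 genes called higher and 1 lower of 36 tested, and the ATF4 list has 2 higher and 5 lower of 26 tested. Of all genes tested, 4.66% were called higher and 5.94% lower. Because of how the lists were drawn up, nothing is read from the difference between them.

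Of 36 glutathione genes tested, 9 were called higher and 1 lower, with a median log2 fold change of 0.17. Mgst3, a microsomal glutathione transferase, rose from 9.67 ± 1.18 to 20.7 ± 1.52 CPM (log2 fold change 1.1002 ± 0.13, SE, edgeR adjusted p 8.9e-05). Gpx3, a secreted glutathione peroxidase, rose from 41.5 ± 4.43 to 62.6 ± 4.87 CPM (0.59 ± 0.096, adjusted p 9.7e-04). Both calls held in all 17 alternatives. Gstt2 (0.68 ± 0.16), Oplah (0.90 ± 0.27) and Gss, which completes glutathione synthesis (0.38 ± 0.10, log2 fold change ± SE), were also called higher, in 16, 11 and 12 of the 17 alternatives. Abcc5, an organic anion transporter, fell (-0.43 ± 0.11), a call that held in 13 of 17. The abundant peroxidases Gpx1 (983 ± 58.3 CPM in control) and Gpx4 (409.7 ± 21.8 CPM) had log2 fold changes of 0.033 ± 0.083 and 0.032 ± 0.082 (SE), which turned negative with the gene-length offset. Slc3a2, the heavy chain that carries Slc7a11 to the membrane, averaged 249 ± 13.9 CPM in control against 227 ± 7.74 CPM in treated cells (-0.13 ± 0.069, adjusted p 0.288). The ratio of Slc7a11 to Slc3a2 counts was 0.891 to 1.04 in control and 0.685 to 0.827 with DB2313.

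Thioredoxin itself, Txn1, was at 322 ± 17.9 and 388 ± 46.8 CPM. Its log2 fold change was 0.27 ± 0.085 (SE, edgeR adjusted p 0.0579) and it was called in 6 of 17 alternatives, DESeq2 among them. The ratio of Txnrd1 to Txn1 counts overlapped between groups (0.638 to 0.680 in control, 0.616 to 0.870 with DB2313). Of the 22 genes of this list, 3 were called higher and 1 lower, beside 4.66% and 5.94% of all genes tested. Txnip, which binds and inhibits thioredoxin, rose by 0.31 ± 0.073 (adjusted p 0.0119). Selenow and Txndc12 rose by 0.36 ± 0.098 and 0.29 ± 0.087, and Sesn3, a sestrin, fell (-0.39 ± 0.093). The calls of these 4 genes held in 14, 12, 9 and 15 of 17 alternatives.

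The reductases above draw on NADPH. Of 16 genes tested around its supply, 2 were called higher and 3 lower, beside 4.66% and 5.94% of all genes tested. Idh1, the cytosolic isocitrate dehydrogenase, fell from 316 ± 16.2 to 237 ± 3.66 CPM (log2 fold change -0.42 ± 0.067, SE, edgeR adjusted p 9.4e-04). Aldh1l1 of folate metabolism fell from 38.1 ± 2.48 to 25.6 ± 1.95 CPM (-0.58 ± 0.098, adjusted p 0.00139). Both held in all 17 alternatives. Mthfd2 fell (-0.40 ± 0.090), while the mitochondrial Idh2 (0.39 ± 0.087) and Rpe of the pentose phosphate pathway (0.34 ± 0.084) rose, with calls in 13, 16 and 14 of 17 alternatives.

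Around Hmox1, a pair of haem and iron genes were called higher. Blvrb, biliverdin reductase B, rose from 131 ± 4.28 to 204 ± 4.51 CPM (log2 fold change 0.64 ± 0.068, SE, edgeR adjusted p 2.6e-05). Slc40a1, ferroportin, which exports the iron, rose from 67.2 ± 5.42 to 130.4 ± 16.2 CPM (0.96 ± 0.095, adjusted p 1.6e-05). Both held in all 17 alternatives. Blvra, biliverdin reductase A, had 48.2 ± 1.76 CPM in control and 55.8 ± 1.77 CPM with DB2313. Its log2 fold change was 0.21 ± 0.080 (SE, edgeR adjusted p 0.117), and it was not called. Blvra lies outside the naming rule and was named after its values were seen. The ferritin chains Fth1 (5819 ± 224 CPM in control) and Ftl1 (3442 ± 201 CPM) had log2 fold changes of 0.056 ± 0.075 and 0.15 ± 0.087 (SE) and were not called. The haem exporter Flvcr1 fell (-0.34 ± 0.087), a call that held in 12 of 17 alternatives. Cd163, the haemoglobin scavenger of macrophages and outside the naming rule because of its low level, had 36, 20 and 23 counts in control and 0, 5 and 8 counts with DB2313, and was called lower (edgeR adjusted p 0.0123). It is named after its values were seen. In all, 2 of 14 haem genes were called higher and 2 lower, beside 4.66% and 5.94% of all genes tested.

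Of 29 other detoxification genes tested, 6 were called higher and 2 lower, beside 4.66% and 5.94% of all genes tested. Their median log2 fold change was 0.13. Aldh9a1, an aldehyde dehydrogenase, rose from 248 ± 8.24 to 331 ± 13.2 CPM (0.42 ± 0.067, SE, edgeR adjusted p 9.2e-04), and Tiparp, better known as a target of the aryl hydrocarbon receptor, from 29.8 ± 3.18 to 42.3 ± 2.67 CPM (0.51 ± 0.10, adjusted p 0.00417). Both held in all 17 alternatives. Osgin1, an oxidative stress response gene (0.39 ± 0.092), and Akr1c13, an aldo-keto reductase (0.33 ± 0.10), were called higher, and Esd (-0.25 ± 0.073) and Lpcat2 (-0.25 ± 0.073, log2 fold change ± SE) lower. These calls held in 15, 7, 11 and 10 of 17 alternatives.

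Of 8 other genes listed around superoxide and peroxide, none was called higher and 1 was called lower, beside 4.66% and 5.94% of all genes tested. The list (Sod1, Sod2, Sod3, Cat, Ccs, Park7, Ucp2 and Oxsr1) is not limited to enzymes that remove them. A list of this size is too short to read anything from these shares. Catalase (Cat) and the superoxide dismutases Sod1 and Sod2 had log2 fold changes of -0.12 ± 0.066, 0.14 ± 0.081 and -0.23 ± 0.073 (SE), with edgeR adjusted p of 0.274, 0.340 and 0.0563. Sod2 was called lower in 4 of 17 alternatives, and Sod1 was called higher without DB2313 replicate 3 (0.21). The extracellular Sod3 fell from 6.17 ± 1.33 to 2.35 ± 0.439 CPM (-1.39 ± 0.25, adjusted p 0.00203) and was the gene called lower. On the side of superoxide production, Cybb, the catalytic subunit of the phagocyte NADPH oxidase, fell from 987 ± 93.3 to 711 ± 84.3 CPM (-0.47 ± 0.089, adjusted p 0.00282). Rac2, a GTPase of the same complex, rose by 0.23 ± 0.070 (adjusted p 0.0472), a call that held in 10 of 17 alternatives. The other 7 of 9 oxidase genes tested were not called.

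Slc7a11 is by general knowledge also a target of ATF4, the factor of the amino acid stress response, so that list was counted as well. Of 26 genes tested, 2 were called higher and 5 lower, beside 4.66% and 5.94% of all genes tested. Their median log2 fold change was -0.058. Atf4 itself averaged 175 ± 6.502 CPM in control against 170.2 ± 20.7 CPM in treated cells (-0.037 ± 0.086, SE, edgeR adjusted p 0.851), and its sign turned without DB2313 replicate 3. Atf5 fell from 57.7 ± 0.574 to 34.8 ± 4.98 CPM (-0.73 ± 0.10, adjusted p 3.0e-04). Wars, a tRNA synthetase that interferon also induces, fell from 172 ± 9.54 to 113 ± 4.75 CPM (-0.60 ± 0.073, adjusted p 9.4e-05). Slc38a2, a transporter of small neutral amino acids, fell (-0.32 ± 0.078) with calls in 14 of 17 alternatives, and Mthfd2, given above, is on this list too. Phgdh, the first enzyme of serine synthesis, rose from 62.5 ± 6.78 to 90.4 ± 12.5 CPM (0.53 ± 0.11, adjusted p 0.00416), and Psat1 of the same pathway rose by 0.38 ± 0.089 with calls in 15 of 17. Without DB2313 replicate 2 or control replicate 1, 4 oxidase and ATF4 genes were called in place of 9, and without control replicate 2 there were 5.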

How the data were processed

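A single table deposited by the authors held unnormalised read counts for each gene in 6 libraries, beside gene lengths in base pairs. The submitters' processing notes named CASAVA 1.8, HISAT2 2.0.5 and featureCounts 1.5.0-p3, whereas the methods of the study named LifeScope. Strandedness, the treatment of reads with several matches and the genome build were not given in the sources used here. Gene positions in the table were the same as in GENCODE M21 (GRCm38) for 98.3% of 54409 shared identifiers and for all 10 genes, so coordinates are given as GRCm38. Columns were matched to samples by name and number.

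Counts were tested with the quasi-likelihood test of edgeR 4.0.16 (R 4.3.3; TMM scaling, filterByExpr, group as the only term, two-sided). Benjamini-Hochberg adjustment ran over 14174 genes and the threshold was 0.05. Fold changes are DB2313 against control. The precision is that of 3 libraries per group, and nothing says whether these came from separate cultures, so errors cover only the spread between them (common coefficient of biological variation 9.66%). The fitting code was tested on simulated data. The 10 genes and all lists were chosen with earlier results of these data known. No p is therefore given for the 10 genes or for any list as a whole, and the adjusted p of a single other gene is that of the fit over all genes and is no independent evidence for its list. Named genes were the 10, 19 fixed by name, and from each list up to 4 per direction past the threshold with a mean log2 CPM of at least 1. Of the 10 genes, copies were sought with blastn 2.17.0 (GENCODE M21 transcripts, 95% identity over 100 bp). Alternatives were other scalings, filters and tools (DESeq2 1.42.0, limma 3.58.1), an offset for gene length, a replicate block and the omission of each library. The labels gave no batch.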

Additional observations from a re-analysis of the deposited data

How the results depend on the processing

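The 7 calls among the 10 genes kept their sign in all 17 alternatives. Each fit without 1 library has fewer samples, and the cause of its other effects was not tested. Over these 6 fits, the calls among the 10 genes ranged from 4 to 7 (3 to 6 higher), their median log2 fold change from 0.26 to 0.31, calls among all genes from 739 to 2408 (1503 with all libraries, and 846, 796 and 854 without control replicates 1, 2 and 3), calls among the further pathway genes from 14 to 51 (10 to 36 higher, 4 to 16 lower), and among oxidase and ATF4 genes from 4 to 10. In the other 11 alternatives these counts stayed within 1.5 times.

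The shared replicate numbers gave no sign of pairing. Deviations from the group means correlated at 0.0035, -0.024 and -0.12 between same-numbered libraries, and no library went best with its own number. With the replicate block, 5 of the 10 genes were called (Hmox1 and Prdx1 were not) and 25 of the further pathway genes.

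Signs turned only for named genes that were not called. Nqo1 turned with library totals (0.011) and ranged from -0.068 to 0.092 over the fits without 1 library. Gpx1, Gpx4 and Fth1 turned with the gene-length offset (-0.030, -0.019 and -0.038) and with offset and replicate block together (-0.031, -0.020 and -0.038). Over the fits without 1 library, ranges were -0.051 to 0.12 for Gpx1, -0.044 to 0.11 for Gpx4, -0.017 to 0.13 for Fth1, -0.037 to 0.063 for Keap1, -0.18 to 0.063 for Bach1, -0.11 to 0.022 for Mafk and -0.11 to 0.056 for Atf4. Of the 34 named genes called outside the 10, 14 kept their call in all 17 alternatives and none turned sign. Depth was 16146743 counts or more per library, and its part in the calls was not tested.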
